A study of Mus musculus with 6 samples.

Results

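The genes described here encode the subunits of the mitochondrial oxidative phosphorylation complexes that are transcribed in the nucleus. They were chosen by symbol alone: subunits of complex I (Ndufa, Ndufb, Ndufc, Ndufs and Ndufv genes), complex II (Sdha to Sdhd), complex III (the Uqcr genes and Cyc1), complex IV (Cox5 to Cox8 genes with a letter after the digit) and complex V (the Atp5 genes). Of 24421 genes in the deposited table, 83 met this rule, and 77 of them passed the filter on low counts. The rule does not take Cox4i1, Cox4i2, Ndufab1 or Cycs, which are given with the other genes of the pathway, and the table held 0 mitochondrially encoded genes. Ndufa4, first named for complex I, is a component of complex IV and is placed there with its relative Ndufa4l2. Atp5s and Atp5sl carry the name of the ATP synthase but are not taken as subunits of it. They are counted among the 83 but in no complex.

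The 6 libraries hold polyadenylated RNA of nuclei sorted from the mPFC (medial prefrontal cortex) of Foxp2-Cre mice. Of these, 3 belong to the pain condition, labelled CFA (in pain research the short form of complete Freund's adjuvant, an inflammatory agent), and 3 to the saline control. In both groups an adeno-associated virus for KASH-GFP, a fluorescent protein held on the nuclear envelope, had been injected into the mPFC on both sides 4 weeks earlier. Cre in these mice is driven from Foxp2, a transcription factor of deep-layer corticothalamic neurons. The labels give neither the age of the mice nor the interval from CFA to collection. Nor do they tie a library to its own animal. All p-values therefore describe the spread among these libraries, some of which may be technical.

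Oxidative phosphorylation supplies most of the ATP that neurons spend on ion pumping and synaptic transmission. Complex I (NADH dehydrogenase) and complex II (succinate dehydrogenase) pass electrons to ubiquinone, complex III passes them to cytochrome c, complex IV (cytochrome c oxidase) passes them to oxygen, and complex V (ATP synthase) uses the resulting proton gradient. All except complex II combine subunits from the mitochondrial and nuclear genomes, and the nuclear genes are known targets of the transcription factors NRF1, GABPA (an ETS factor) and YY1.

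Total counts ranged from 9673038 to 11850741 per library, of which 94399 to 175919 fell on the 83 genes. Excitatory neuron markers had the highest summed level of the cell type lists, 2580 to 3376 CPM (counts scaled to library size). Slc17a7 alone was at 1931 to 2645 CPM of this. Foxp2 itself lay between 23.98 and 43.7 CPM. Inhibitory markers summed to 108 to 177 CPM, astrocyte markers to 456 to 642 CPM (Slc1a2 alone 258 to 363) and microglia markers to 19.0 to 55.9 CPM. Sums over different genes do not give the shares of cell types. Oligodendrocyte markers summed to 232 to 387 CPM and striatal markers to 191 to 692 CPM. The mean log2 CPM of the striatal markers was 3.96 ± 0.92 in CFA and 5.19 ± 0.88 in saline libraries (SD, n = 3). Microglia markers went the other way, at 2.403 ± 0.641 in CFA and 1.4985 ± 0.547 in saline libraries. So did the mean of oligodendrocyte precursor markers, at 2.34 ± 0.42 and 1.21 ± 0.93. Not every marker followed its list mean. The microglia marker P2ry12 was lower in CFA, at 5.94 against 7.81 CPM in saline libraries (group means). The precursor marker Cspg4 was also lower in CFA, at 1.75 against 3.77 CPM, and its groups did not overlap. The other markers of both lists had positive log2 fold changes. Of the precursor markers, Gpr17 and Olig2 were at 0 CPM in saline replicate 3. In the striatal, microglia and precursor lists the library means of the groups overlapped, and the other cell type lists differed less between groups. In such bulk libraries fewer cells of a type and less RNA per cell cannot be told apart. CPM values here use library sizes adjusted by edgeR's TMM factors.

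The promoters of the genes were read for sequence motifs of NRF1, ETS factors and YY1. RefSeq windows of 300 bases (GRCm38.p6, 250 before to 50 after the transcription start) were found for 69 of the 83 genes, 75 windows in all. The windows were searched on both strands for the 7-base NRF1 core GCGCATG, the 10-base NRF1 palindrome (the core joined to its reverse complement CATGCGC over their shared CATG, so that it holds the core on both strands), the ETS motif CCGGAAG and the YY1 motif AAGATGG. For each complex 1 promoter with matches is shown, chosen after the matches were seen: Ndufb8 (chr19:44555393-44555692, minus strand), Sdhb (chr4:140961021-140961320, plus strand), Uqcrc1 (chr9:108936398-108936697, plus strand), Cox6a1 (chr5:115348909-115349208, minus strand) and Atp5k (chr5:108434350-108434649, minus strand). Capitals mark motif matches, and each line is read along the gene's own strand with 250 bases before the start.
Ndufb8: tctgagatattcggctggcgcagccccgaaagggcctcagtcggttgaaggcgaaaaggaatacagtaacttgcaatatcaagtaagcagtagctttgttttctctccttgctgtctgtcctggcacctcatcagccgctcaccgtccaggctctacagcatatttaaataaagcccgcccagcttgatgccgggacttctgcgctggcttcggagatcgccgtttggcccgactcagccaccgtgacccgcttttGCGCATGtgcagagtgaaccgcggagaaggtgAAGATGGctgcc
Sdhb: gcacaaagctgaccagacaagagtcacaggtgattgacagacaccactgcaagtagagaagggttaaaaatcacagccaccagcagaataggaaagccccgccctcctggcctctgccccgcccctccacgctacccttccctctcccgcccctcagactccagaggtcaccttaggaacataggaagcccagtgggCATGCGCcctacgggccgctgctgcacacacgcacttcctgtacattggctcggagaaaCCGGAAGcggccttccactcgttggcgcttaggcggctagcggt
Uqcrc1: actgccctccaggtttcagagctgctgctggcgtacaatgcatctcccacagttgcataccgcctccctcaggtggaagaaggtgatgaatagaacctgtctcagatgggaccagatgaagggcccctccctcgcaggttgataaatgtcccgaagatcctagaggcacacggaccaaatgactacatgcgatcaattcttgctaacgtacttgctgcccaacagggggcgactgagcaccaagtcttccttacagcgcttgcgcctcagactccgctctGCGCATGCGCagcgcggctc
Cox6a1: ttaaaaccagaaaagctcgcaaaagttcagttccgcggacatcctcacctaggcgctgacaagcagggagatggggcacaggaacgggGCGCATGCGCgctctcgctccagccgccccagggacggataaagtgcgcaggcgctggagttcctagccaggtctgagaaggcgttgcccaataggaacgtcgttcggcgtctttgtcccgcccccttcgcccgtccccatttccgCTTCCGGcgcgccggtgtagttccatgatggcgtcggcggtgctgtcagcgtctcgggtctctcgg
Atp5k: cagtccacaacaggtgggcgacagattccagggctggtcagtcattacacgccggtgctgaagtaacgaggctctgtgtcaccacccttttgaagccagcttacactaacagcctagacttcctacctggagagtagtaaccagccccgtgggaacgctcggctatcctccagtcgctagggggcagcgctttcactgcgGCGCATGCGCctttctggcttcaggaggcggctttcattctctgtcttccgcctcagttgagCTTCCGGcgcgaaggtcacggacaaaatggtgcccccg
Ndufb8, a membrane-arm subunit of complex I, held the NRF1 core and the YY1 motif, beginning 6 and 38 bases from the start. Sdhb, the iron-sulfur subunit of complex II, held the core and an ETS motif. Uqcrc1, a core protein of complex III, held the whole palindrome after its start, and Cox6a1 and Atp5k, subunits of complexes IV and V, held the palindrome and an ETS motif.

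The NRF1 palindrome was in 6.67% of the 75 windows, against 1.99% of 13196 windows of tested genes and 0.97% of all 32851 windows. The core was in 17.33%, 6.65% and 3.91%. The ETS motif was in 21.33%, 15.96% and 8.86%, and the YY1 motif in 17.33%, 6.84% and 6.34%. At least 1 of the core, ETS and YY1 motifs was present in 34 windows (45.33%), against 26.33% for tested genes. Median GC content was 57.3% in the 75 windows and 60.7% in those of tested genes. Of the 13 windows with a YY1 match, 9 had one on the gene's own strand that began 20 to 40 bases after the start, namely those of Ndufa3, Ndufa9, Ndufb8, Ndufc1, Ndufs4, Ndufs6, Ndufs7, Atp5j2 and Atp5sl. That is 12% of the windows, against 1.17% for tested genes, and these letters include an ATG. Of the 9 genes, 7 belong to complex I, which has 33 of the 75 windows. The range of 20 to 40 bases was set after the positions were seen. A match describes letters in a window and shows no binding, and these shares were not tested.

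**Figure D1:**
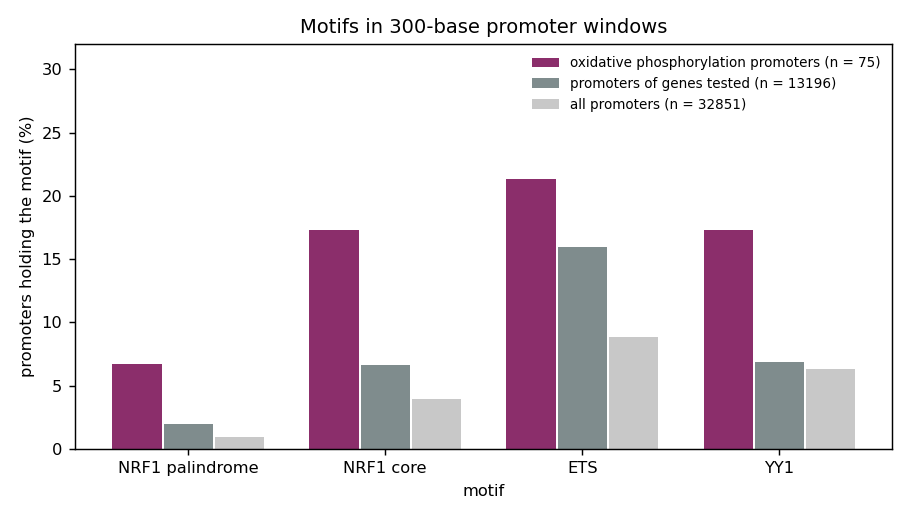
Share of 300-base promoter windows (vertical axis, percent) that hold each of 4 motifs (horizontal axis), for the oxidative phosphorylation genes, for all genes tested and for all RefSeq promoters. The oxidative phosphorylation bar is the tallest for each motif, at 6.67% for the NRF1 palindrome and 21.33% for the ETS motif.

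Levels between genes were compared as CPM per kilobase of exon (CPM per kb), averaged over the 6 libraries, for the 75 genes with a mean of at least 10 CPM. The median gene of complex IV was at 292.6 CPM per kb, that of complex III at 229.2, that of complex V at 209.5, that of complex II at 142.4 and that of complex I at 138.9. The limit of 10 CPM kept 11 of 18 genes of complex IV, 34 of 35 of complex I and all of the others. Median exon length was 545, 546, 772, 1232 and 710 bases in complexes IV, III, V, II and I. The part of the limit or of length in this order was not tested. Within a complex the genes spread widely. From the lowest to the highest gene the fold was 8.18 in complex I, 3.80 in complex II, 2.37 in complex III, 10.3 in complex IV and 19.8 in complex V.

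The extremes were named genes of every complex. Atp5b, the catalytic beta subunit of ATP synthase (chr10:128083307-128090388, mm10), was the highest of all at 728 CPM per kb. Ndufa4 (chr6:11900373-11907446) was the highest of complex IV at 533 CPM per kb. Ndufb8 led complex I at 309.5 CPM per kb, Uqcrc1 led complex III at 284 and Sdhb led complex II at 228. At the low end of the complexes, among genes at 10 CPM or more, were Atp5g2 and Ndufv3 (both named after their values were seen). Atp5g2, a gene for the membrane ring of ATP synthase, was at 36.8 CPM per kb. Ndufv3, an accessory subunit of the NADH-oxidising module, was at 37.9. Atp5sl and Atp5s, which are in no complex, were lower still, at 17.9 and 30.4 CPM per kb.

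**Figure D2:**
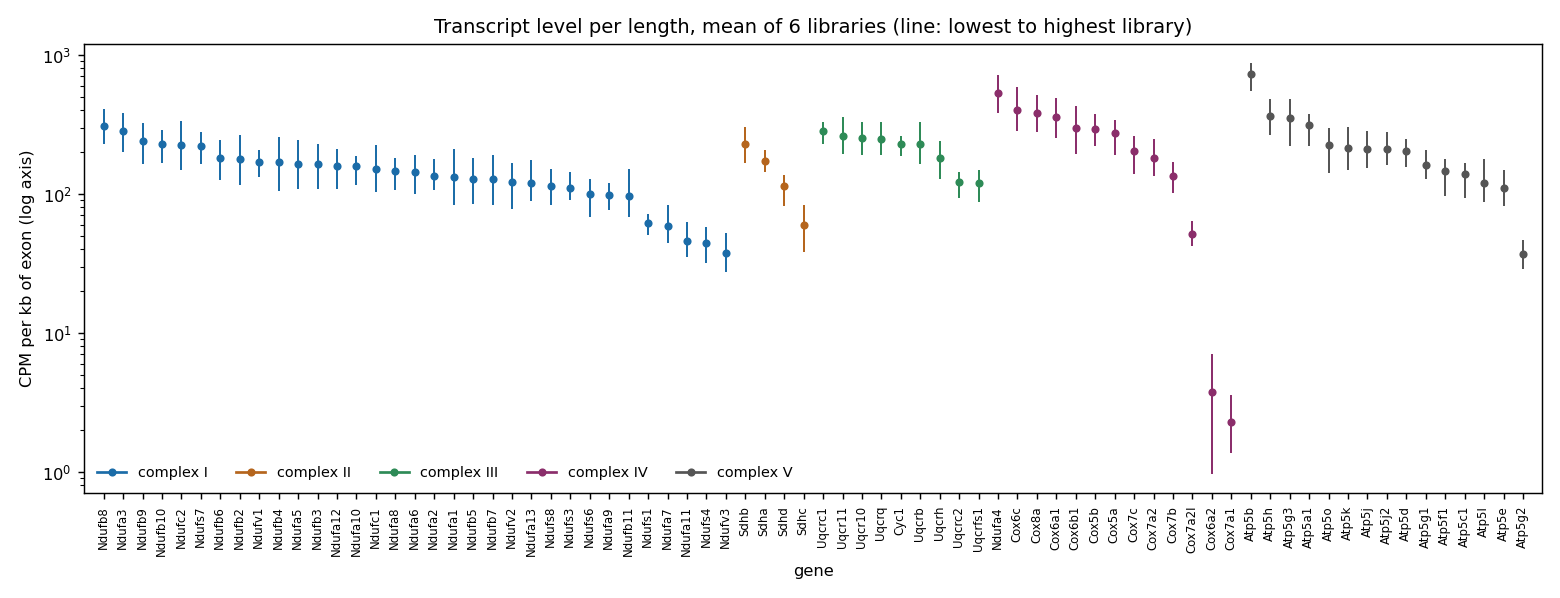
Level of the tested subunit genes except 1 of complex I (horizontal axis, ordered by level inside each complex) in CPM per kb of exon (vertical axis, log scale). Points are means of the 6 libraries and lines run from the lowest to the highest library. Atp5b stands highest at 728, and Cox6a2 and Cox7a1 stand far below the other genes.

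Between CFA and saline libraries no difference was detected for any of these genes. Of 77 tested, 0 were called at an adjusted p under 0.05 (quasi-likelihood F test of edgeR, Benjamini-Hochberg over 13560 genes), and the share called among all genes tested was 0%. Before adjustment 0 of the 77 had a p under 0.05, against 3.22% of all genes tested (437), and the smallest unadjusted p was 0.412 (Cox6a2). DESeq2, limma-voom and edgeR's likelihood ratio test also called 0 of the 77, and each gave 0 at an unadjusted p under 0.05. The CFA and saline values overlapped for all 77, where groups did not overlap for 7.51% of all genes tested. The log2 fold change (CFA minus saline) was positive for 41 and negative for 36, and 49.8% of all genes were positive. Its median was 0.0035, against -0.0011 for all genes.

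The fold changes were small and their errors larger. Among the 75 genes at 10 CPM or more the median absolute log2 fold change was 0.047, against 0.123 for the 9899 tested genes at such levels, with a median standard error of 0.22 in both sets. Every one of the 75 lay between -0.20 and 0.18. The lowest bound of any 95% interval was -0.73 (Ndufb2, whose upper bound was 0.33) and the highest was 0.70 (Ndufs6, whose lower bound was -0.34). The width of the interval did not simply follow the level. It ran from -0.33 to 0.43 for Uqcrc1, at 478 and 462 CPM (CFA and saline means). For Atp5g3, at 246.5 and 265 CPM, it ran from -0.64 to 0.43, and for Atp5sl, at 41.5 and 45.5 CPM, from -0.56 to 0.30.

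Complex I has a hydrophilic arm that takes electrons from NADH and a membrane arm that pumps protons. Of 34 tested genes 17 were positive and 17 negative, with a median log2 fold change of -0.0011. The median was 0.0098 for the 8 genes of the NADH-oxidising module, 0.052 for the 8 of the quinone-binding module and -0.021 for the 18 tested of the membrane arm. Ndufv1, which binds NADH and flavin, was at 226, 301 and 289 CPM in CFA and 329, 271 and 214 CPM in saline libraries (replicates 1, 2 and 3 of each group, here and in what follows). The saline libraries alone spanned the whole range, and its log2 fold change was 0.0021 ± 0.20 (SE). Ndufs1, the largest iron-sulfur subunit, was at 152, 179 and 207 CPM in CFA and 201, 189 and 156 CPM in saline libraries. It was highest in CFA replicate 3 and lowest in CFA replicate 1, and the groups overlapped. Ndufs7, which carries the last iron-sulfur cluster before quinone, was at 159, 178 and 169 and at 207, 158 and 127 CPM. Saline replicate 3 was its lowest library.

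The complex I genes with the smallest p had overlapping groups as well. Ndufs6, a zinc-binding accessory subunit, was at 46.7, 71.8 and 61.2 CPM in CFA and 71.6, 47.6 and 39.5 CPM in saline libraries. Its log2 fold change was 0.18 ± 0.24. Ndufa12, another accessory subunit of the hydrophilic arm, was at 65.4, 106 and 108 and at 116, 78.8 and 61.8 CPM, with a log2 fold change of 0.12 ± 0.25. Among genes with negative values, Ndufc1 of the membrane arm was at 43.2, 68.7 and 61.8 CPM in CFA and 90.8, 58.3 and 50.3 CPM in saline libraries. Ndufb2, also of the membrane arm, was at 53.2, 91.8 and 81.5 and at 119, 73.4 and 67.5 CPM. Their log2 fold changes were -0.20 ± 0.25 and -0.20 ± 0.25. For Ndufc1 and Ndufb2 the highest value was saline replicate 1 and the lowest CFA replicate 1, with the other 4 libraries between.

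Ndufs5, a small subunit of the membrane arm (chr4:123712710-123718186), was listed at 0 counts in all 6 libraries, while the lowest value of any other complex I gene was 39.5 CPM (Ndufs6, saline replicate 3). Its gene model shares 95.1% of its exon bases, on the same strand, with the model BC002163, and BC002163 had 39 to 58 counts per library. The counting of reads that lie on 2 models is not given in the sources, so the 0 is a value of the table and not a level of the transcript. Exon bases were shared with a gene on the opposite strand for 9 of the 83 genes, among them Atp5j (13.6% of its length, with Gabpa) and Ndufa13 (27.5%, with Tssk6), and the library kit does not mark strand.

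Complex II, which also belongs to the citric acid cycle, had 2 positive and 2 negative genes and a median log2 fold change of -0.012. Sdha, the flavin subunit that oxidises succinate (chr13:74322255-74350240), was at 456, 439 and 582 CPM in CFA and 517, 520.5 and 419 CPM in saline libraries. Sdhb was at 222, 250 and 267 and at 317, 229 and 182 CPM. Sdhc and Sdhd, the membrane anchors, were at 69.6 ± 8.11 and 71.7 ± 25.1 CPM and at 144 ± 23.04 and 149 ± 36.5 CPM (CFA and saline means ± SD, n = 3, here and below). For Sdhb, Sdhc and Sdhd all 3 CFA values lay between saline replicate 3 and saline replicate 1. Sdha was the exception, highest in CFA replicate 3.

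In complex III 7 of 9 genes were positive, with a median of 0.035. Cyc1, which hands electrons to cytochrome c, was at 233, 293 and 305 CPM in CFA and 296, 290.2 and 226 CPM in saline libraries. Uqcrfs1, the Rieske iron-sulfur protein, was at 139, 154 and 173 and at 191, 168 and 116 CPM. In both genes saline replicate 3 was the lowest. The core proteins Uqcrc1 and Uqcrc2 were at 478 ± 53.1 and 462 ± 68.2 CPM and at 232 ± 31.3 and 228 ± 44.5 CPM. Among the small subunits Uqcr10 and Uqcrh had the smallest p in each direction, with log2 fold changes of 0.08 ± 0.22 and -0.041 ± 0.23.

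Complex IV gave a median of -0.026 over 13 tested genes, 6 positive and 7 negative. Ndufa4 was at 204, 298 and 286 CPM in CFA and 346, 248 and 192 CPM in saline libraries. Its log2 fold change was 0.0039 ± 0.22. Cox5b, a subunit used in all tissues, was at 139.9, 194 and 181 and at 209.5, 147 and 128 CPM. Cox6a1 was at 136, 219 and 199 and at 256, 181 and 155 CPM, and Cox6c at 145, 236 and 206 and at 288, 179.8 and 153 CPM. All 4 genes had the same order of saline libraries, replicate 1 above 2 above 3, and CFA values inside or just below that span.

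Several complex IV subunits exist as isoforms of separate genes, of which striated muscle, testis or lung use their own. In these nuclei the common isoform made up nearly all of the Cox6a, Cox6b, Cox7b and Cox8 families. By CPM per kb, Cox6a1 was 98.3% to 99.7% of Cox6a1 and Cox6a2 (the heart and skeletal muscle form), and Cox6b1 was 99.75% to 99.95% of Cox6b1 and Cox6b2 (the testis form). Cox8a was 100% of its family, since Cox8b and Cox8c had 0 counts in all libraries. The floor used for a count of 0 was 3 counts, or 0.25 to 0.304 CPM. This floor is an approximate 95% upper bound on the expected count, not a hard limit. Cox7b was 98.2% to 100% of Cox7b and Cox7b2. Cox7b2 had 0 to 4 counts in the CFA libraries and 19, 11 and 2 in saline replicates 1, 2 and 3, under the filter. Cox6b2 had 1 to 4 counts and Ndufa4l2, a form induced by hypoxia, 0 to 7.

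The Cox7a family was the mixed one. Cox7a2, the common form, was at 114, 157 and 132 CPM in CFA and 183, 124 and 104 CPM in saline libraries. Cox7a2l, which joins complexes III and IV into supercomplexes, was at 53.4, 52.5 and 70.9 and at 72.6, 49.6 and 57.9 CPM. Cox7a2l made up 17.8% to 26.6% of the family by CPM per kb, and Cox7a1, the muscle form, 0.73% to 1.67%. Of its 50-base stretches Cox7a2l shares 17.8% with transcripts of another gene, and Cox7a2 and Cox7a1 share 0%. The effect on these shares of the family was not measured. Cox6a2 was at 2.75, 4.58 and 1.73 CPM in CFA and 3.76, 0.649 and 1.42 CPM in saline libraries, so that its groups overlapped. Its log2 fold change of 0.63 ± 0.75 had the largest size of the 77, on low counts, and 10.5% of its exon bases lie on the opposite strand of Itgad.

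Complex V had 8 positive and 7 negative genes, with a median of 0.012. Of the catalytic head, Atp5b was at 1301, 1326 and 1602 CPM in CFA and 1557, 1380 and 1045 CPM in saline libraries. Its log2 fold change was 0.087 ± 0.19. Atp5a1, the alpha subunit, was at 694, 735 and 845 and at 892, 857 and 546 CPM, and Atp5c1, the rotating gamma subunit, at 247 ± 18.4 and 252 ± 70.9 CPM. Saline replicate 3 was the lowest library for all 3 of these genes. In the stalk Atp5f1 had a log2 fold change of 0.11 ± 0.23. In the membrane part Atp5k had 0.12 ± 0.26, Atp5g3 -0.11 ± 0.25 and Atp5l -0.042 ± 0.26. Outside the complexes, Atp5s was at 46.2 ± 12.1 and 44.1 ± 7.38 CPM and Atp5sl at 41.5 ± 6.78 and 45.5 ± 2.46 CPM.

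The proton-driven ring of ATP synthase is built from 1 mature protein made by 3 genes. Atp5g3 gave 58.6% to 67.8% of their summed CPM per kb, Atp5g1 26.4% to 33.8% and Atp5g2 5.84% to 7.62%. The order of the 3 was the same in all 6 libraries. In CFA the means were 62.9% ± 2.61, 30.2% ± 2.21 and 6.93% ± 0.535 (SD, n = 3), and in saline 63.95% ± 4.77, 29.45% ± 3.85 and 6.601% ± 0.919. Atp5g2 shares 38.3% of its 50-base stretches with other annotated transcripts, Atp5g1 11.1% and Atp5g3 0%. The low value of Atp5g2 is therefore uncertain, and the size of the effect was not measured.

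**Figure D3:**
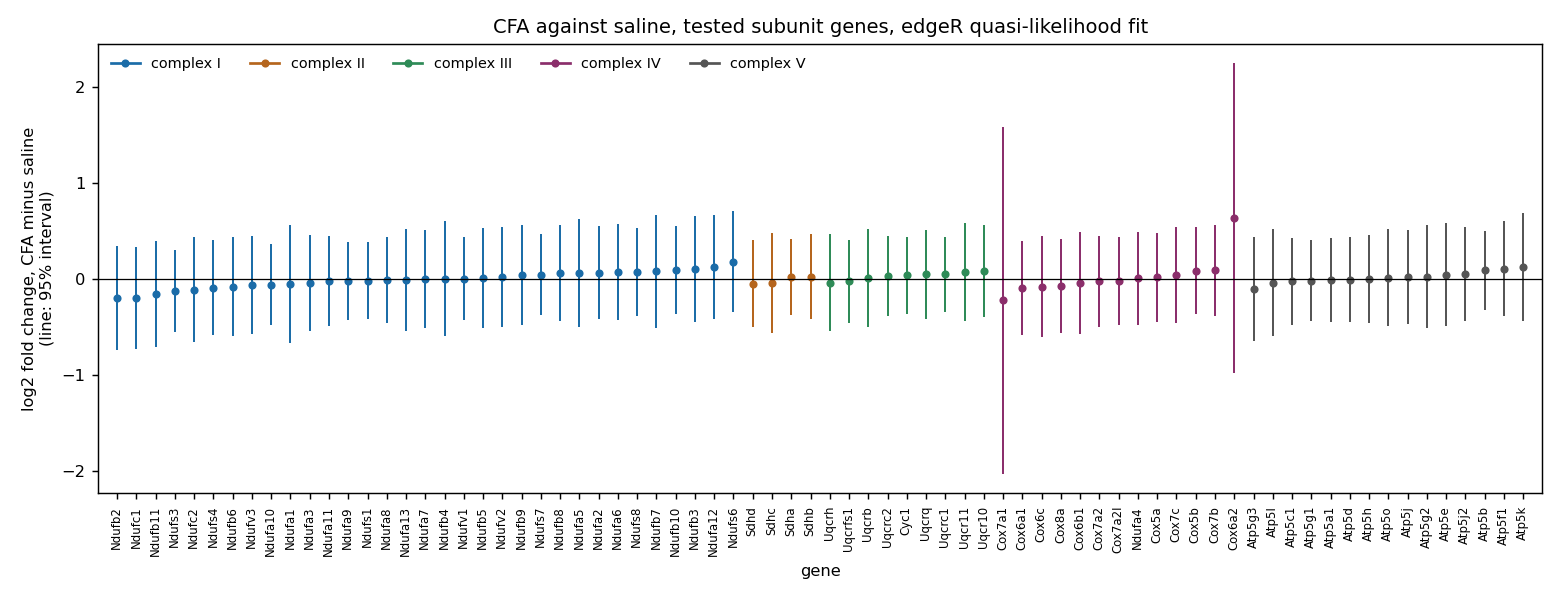
Log2 fold change, CFA minus saline (vertical axis), of the tested subunit genes except 1 of complex I (horizontal axis), each with its 95% interval from edgeR's quasi-likelihood fit, ordered by value inside each complex. All intervals drawn cross 0. The 2 long intervals belong to Cox7a1 and Cox6a2, the genes under 10 CPM.

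Differences between libraries of the same group were larger than those between groups, and nearly all the genes took part. The mean log2 CPM of the 75 genes was 6.72, 7.19 and 7.12 in CFA and 7.39, 6.95 and 6.63 in saline libraries. The saline libraries thus differed by 0.76 and the CFA libraries by 0.48, while the group means of 7.01 ± 0.26 and 6.99 ± 0.38 (SD, n = 3) differed by 0.023. As a share of all counts the 83 genes took 1.08%, 1.38% and 1.34% in CFA and 1.58%, 1.21% and 0.976% in saline libraries. Of the 75 genes 59 (78.7%) were highest in saline replicate 1, against 19.2% of the 9899 tested genes at 10 CPM or more. Saline replicate 3 was the lowest library for 55 (73.3%, against 26.9%), and CFA replicate 1 was the lowest for 19.

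The 5 complexes moved together from library to library. Complex I had a mean log2 CPM of 6.43, 6.93 and 6.87 in CFA and 7.18, 6.65 and 6.34 in saline libraries. Complex IV had 6.90, 7.43 and 7.33 in CFA and 7.63, 7.14 and 6.88 in saline libraries. Inside a library the difference between these 2 complexes stayed between -0.54 and -0.45 on the log2 scale. Complex II kept least to the others, with a difference from complex IV of 0.14 to 0.48. Over the 6 libraries the correlation of a gene's log2 CPM with the mean of the other genes had a median of 0.95, and 50 of the 75 genes (66.7%) were over 0.9. Over 9824 other genes at 10 CPM or more the median was 0.012, with 4.19% over 0.9, and over 506 of them under 1000 bases 30.0% were over 0.9. Ndufa4 had the highest correlation, 0.999. The lowest were Atp5sl at 0.43 (named after its value was seen), Cox7a2l at 0.52 and Sdha at 0.52. All points share the same 6 libraries and scaling, and these correlations are given as a description.

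**Figure D4:**
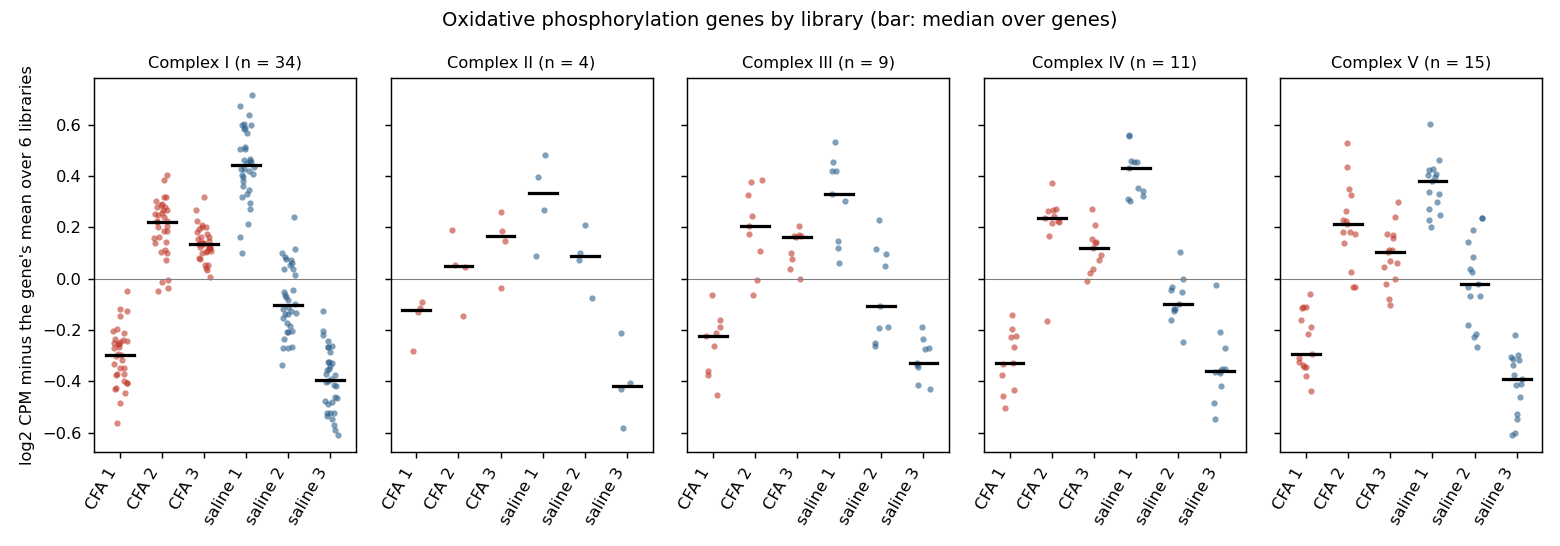
Log2 CPM of each subunit gene at 10 CPM or more, minus its own mean over the 6 libraries (vertical axis), by library (horizontal axis), in 1 panel per complex. Points are genes, red for CFA and blue for saline, and bars are medians. In the panels of all 5 complexes the median of saline replicate 1 is the highest and that of saline replicate 3 the lowest.

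Transcript length moved with these differences. The 75 genes are short, with a median exon length of 739 bases against 3139 for tested genes at 10 CPM or more. Saline replicate 1 exceeded saline replicate 3 for all 75, by a median of 0.77 on the log2 scale, and CFA replicate 2 exceeded CFA replicate 1 for 72, by a median of 0.50. Among tested genes at 10 CPM or more the shares were 51.2% and 52.2%. Over all tested genes at 10 CPM or more, the median of saline replicate 1 minus 3 was 0.61 for genes under 500 bases, 0.56 from 500 up to 1000 bases, 0.32 from 1000 up to 2000, 0.048 from 2000 up to 4000 and -0.26 from 4000 bases up. The oxidative phosphorylation genes lay above these medians, at 0.76, 0.84, 0.70 and 0.37 in the 4 classes they fill, the last with 5 genes.

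Length also went with the pattern among the genes themselves. Of 47 genes under 1000 bases 42 were highest in saline replicate 1 and 0 in CFA replicate 3, and the fold from the lowest to the highest library had a median of 1.83. Of 28 genes of 1000 bases or more 17 were highest in saline replicate 1 and 7 in CFA replicate 3, with a median fold of 1.63. Ndufa1, of 493 bases (chrX:37187589-37191238), had the widest fold, 2.43, from 41.8 to 102 CPM (named after its value was seen). Among the 28 longer genes the fold ran from 1.35 (Cyc1) to 2.09 (Sdhc). Across the 75 genes Spearman's rho between length and the CFA replicate 2 minus 1 difference was -0.67, and between length and the saline replicate 1 minus 3 difference -0.37. Over the 9899 tested genes at 10 CPM or more these were -0.42 and -0.47. Between length and the range of log2 CPM over the 6 libraries, rho was -0.56 for the 75 genes but 0.093 for the 9899. Genes are not independent replicates, and these numbers are descriptions.

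**Figure D5:**
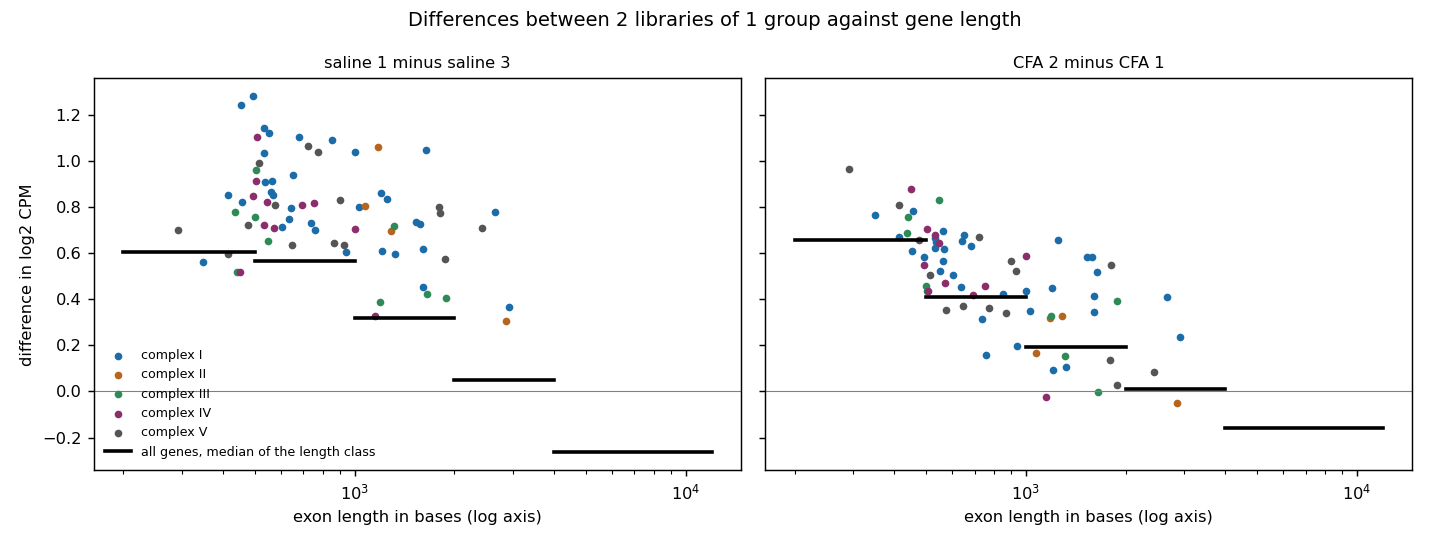
Difference in log2 CPM between 2 libraries of the same group (vertical axis) against exon length in bases (horizontal axis, log scale), for saline replicate 1 minus 3 (left) and CFA replicate 2 minus 1 (right). Points are subunit genes coloured by complex, and black bars are medians of all tested genes at 10 CPM or more in each length class. Bars fall from 0.61 to -0.26 on the left, and most points lie above them.

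Other short, abundant transcripts showed a like order of libraries. The 78 tested cytosolic ribosomal protein genes had a mean log2 CPM of 5.06, 5.51 and 5.30 in CFA and 5.72, 5.12 and 5.07 in saline libraries. For the 75 ribosomal protein genes at 10 CPM or more, the correlation with the mean of the oxidative phosphorylation genes had a median of 0.86. Over the 506 genes under 1000 bases outside the oxidative phosphorylation set the median was 0.81. Ribosomal protein genes of that length were not left out of the 506. Over 3439 genes of 4000 bases or more it was -0.39. The nuclear-retained RNAs Malat1, Meg3 and Snhg11 were highest in saline replicate 3, with a mean log2 CPM of 13.7 against 12.5 to 12.996 elsewhere. Among cell type markers, striatal ones were also highest in saline replicate 1 (6.12) but lowest in CFA replicate 3 (3.26), and excitatory markers were lowest in saline replicate 1 (7.87, with CFA replicate 2 at the same value). The part of transcript length, nuclear RNA content or cell composition in the oxidative phosphorylation values was not tested.

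The sign of the small CFA difference changed with single libraries of either group. With all 6 libraries 41 of 77 genes were positive. Without saline replicate 1, 75 of 77 were positive, with a median log2 fold change of 0.23, and without saline replicate 3, 75 of 78 were negative, with a median of -0.16. Without CFA replicate 1, 70 of 78 were positive (median 0.11), without CFA replicate 2, 65 of 77 were negative (median -0.080), and without CFA replicate 3, 54 of 78 were negative (median -0.044). Without saline replicate 2, 47 of 76 were negative (median -0.024). In none of these 6 fits did edgeR call any of the genes after adjustment over all genes. The smallest unadjusted p among them fell from 0.412 with all libraries to 0.0501 without saline replicate 1 and 0.0518 without saline replicate 3.

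The other genes of the pathway gave no call either. Of the 4 subunits that the rule leaves out Cox4i2 did not pass the filter. Cox4i1, a complex IV subunit, was at 288, 422 and 386 CPM in CFA and 484, 368 and 277 CPM in saline libraries. Its correlation with the mean of the 75 genes was 0.99. Ndufab1, the acyl carrier protein, and Cycs, cytochrome c, had log2 fold changes of -0.12 ± 0.19 and 0.10 ± 0.20. Assembly factors of complex I numbered 13 tested, with 5 positive, 8 negative and a median of -0.059. Ndufaf6 was at 16.9 ± 2.82 and 23.4 ± 4.85 CPM, with a log2 fold change of -0.47 ± 0.26, and Nubpl, which inserts iron-sulfur clusters, was at 5.55 ± 0.679 and 3.74 ± 2.06 CPM. Of 10 factors of complexes II and III 6 were positive, and Bcs1l, which inserts the Rieske protein, was at 23.98 ± 4.08 and 32.3 ± 6.02 CPM. Sdhaf3 was at 10.4 ± 1.39 and 12.2 ± 3.24 CPM. Of 20 factors of complex IV 12 were positive, with a median of 0.025, and Coa5 and Coa7 had log2 fold changes of 0.38 ± 0.21 and 0.40 ± 0.24. Atpaf1 and Tmem70, which help to build complex V, had -0.30 ± 0.23 and 0.18 ± 0.20.

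The transcriptional regulators varied in how they went with the subunits from library to library. Over the 6 libraries the correlation with the mean of the 75 genes ran from -0.91 (Ppargc1b, named after its value was seen) to 0.62 (Tfam) among those at 10 CPM or more, and other genes of 4000 bases or more at such levels had a median of -0.39. The regulators' mean log2 CPM was 4.44, 4.29 and 4.25 in CFA and 4.03, 4.16 and 4.47 in saline libraries, lowest in saline replicate 1 where the subunits were highest. Of 14 tested 7 were positive and 7 negative. Tfam, which packages and transcribes mitochondrial DNA, was at 30.5, 34.3 and 32.7 CPM in CFA and 28.9, 25.04 and 19.1 CPM in saline libraries. Its log2 fold change was 0.41 ± 0.23. It was the 1 regulator of 14 (7.14%) whose groups did not overlap, near the share of 7.51% for all genes. Yy1 was at 11.8, 10.4 and 9.04 and at 17.3, 18.2 and 11.3 CPM, with overlapping groups and a log2 fold change of -0.58 ± 0.30. Citric acid cycle enzymes varied less between libraries than the subunits, from 6.99 to 7.39 in mean log2 CPM, with 8 of 13 positive and a median log2 fold change of 0.031. Dlst and Idh3a had 0.18 ± 0.17 and 0.20 ± 0.20. In edgeR the smallest unadjusted p of all these lists was 0.069 (Yy1), and 0 of their genes were under 0.05.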

How the data were processed

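The authors deposited raw counts per gene, 1 column per library, with exon intervals and exon length, per the file headers. The submitters' processing notes name mm10, featureCounts 2.0.1, HISAT2 2.2.1, edgeR 3.32.1, Trim Galore and SAMtools 1.13, with no order. How strand and reads on several places or genes were handled is not given there. Per the labels' protocols each library came from 10000 nuclei, with 9 PCR cycles (Smart-seq V4, Nextera XT).

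Counts were fitted with edgeR 4.0.16 in R 4.3.3 (TMM, filterByExpr, quasi-likelihood test, treatment as the only term), with Benjamini-Hochberg adjustment over 13560 genes and a threshold of 0.05. The test was checked on simulated data in which genes varied independently. That check does not cover genes that move together from library to library, as these do. Standard errors come from the F statistic, log2 CPM uses a prior count of 2, and floors cover counting error only. No 2 libraries agreed within sampling noise (lowest chi-square per degree of freedom 16.4). The titles' replicate numbers did not pair libraries. Shared sequence was counted as 50-base stretches found in other GENCODE M21 transcripts: 17 of the 83 genes shared over 20%. Among them were Atp5l (84.8%), Atp5f1 (37.6%) and Ndufa12 (26.2%), and the effect on their levels was not measured. Genes with no matched RefSeq promoter window included Atp5a1, Cox6a2, Cox6c, Cox8c, Cyc1, Ndufa2, Ndufa4l2, Ndufb9, Ndufs1, Sdhc, Uqcrb, Uqcrc2 and Uqcrq.

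Values of 1 gene are not reported here. The genes and lists were chosen with earlier results of these data known. Named genes were, by rule, the highest per kb and the smallest p in each direction in each complex, core subunits, isoform families, untested genes and the 2 smallest p of each pathway list. Alternatives covered scaling, filters, DESeq2 1.42.0, limma-voom (limma 3.58.1), the likelihood ratio test, a replicate block and leaving out each library.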

Additional observations from a re-analysis of the deposited data

How the results depend on the processing

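Under all 15 alternatives 0 of the oxidative phosphorylation genes were called and 0 had an unadjusted p under 0.05. Over all genes 9 were called with no low-count filter, 5 by DESeq2, 11 by edgeR's likelihood ratio test and 6 with a replicate block, against 0 by the quasi-likelihood test on all 6 libraries with treatment only, and 0 to 5 when 1 library was left out (5 without saline replicate 3). With the replicate block the median log2 fold change of the genes was 0.033. The replicate numbers share no more than a number: deviations of same-numbered libraries correlated at -0.079, 0.025 and -0.069, and 0 of 6 libraries correlated best with their own number. The median moved between -0.16 and 0.23 when 1 library was left out, by less than the spread between replicates, and lay between -0.0089 and 0.025 under the other settings besides the block. With limma-voom 51 of 77 genes were positive and with RLE scaling 36. The median of the complex IV assembly factors was 0.23 without saline replicate 1, and that of the regulators 0.29 without saline replicate 3. The cause was not tested. With 3 libraries per group the resolution of log2 differences is limited by a median standard error of 0.22, and Cox6a2, Cox7a1 and the 6 untested genes are limited by low counts or by shared gene models.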
